A study of Mus musculus with 28 samples.

Results

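The trefoil factor genes Tff1, Tff2 and Tff3 and the gastrokine genes Gkn1, Gkn2 and Gkn3 were followed through stomach, intestine and bladder of p63 knockout and wild-type mouse embryos. These 6 genes were taken by symbol from the 13613 genes tested, each by the probe set (a group of short probes against one transcript) with the highest mean over the 28 arrays. Gkn1 and Gkn3 have 2 probe sets each and the others 1, and all 6 genes passed the filter on low values.

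The study placed total RNA of Balb/c embryos on Affymetrix mouse arrays, in 14 groups of 2. Wild type and p63 knockout were each sampled in 4 parts of the gut at embryonic day 18 (E18), namely both ends of the stomach (proximal and distal) and both intestines (small and large). Bladder of either genotype was sampled at 3 ages, E15, E18 and E19. The labels give the knockout only as p63 KO, without the allele, and give no sex, litter or pooling of embryos. P-values therefore measure the spread between these samples. In 10 of the 14 groups the 2 arrays differed in the Y-linked gene Eif2s3y, so those pairs are not repeats of the same sample and their spread includes sex. In the other groups the spread may be technical. Precision is limited by the number of arrays, and 2 arrays against 2 allow an exact permutation p of no less than 0.333.

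Trefoil factors are small, protease-resistant peptides that mucous cells release together with mucins, and they are known for protecting and repairing the mucosal surface. In the adult, Tff1 is typical of gastric surface mucous cells, Tff2 of the mucous neck and gland cells of the stomach, and Tff3 of intestinal goblet cells. Gastrokines are secreted proteins with a BRICHOS domain, made by gastric mucous cells. The mouse proximal stomach (forestomach) is normally lined by stratified squamous epithelium and the distal stomach by glandular epithelium, while the bladder has a urothelium. The transcription factor p63, encoded by Trp63, is needed for stratified epithelia to form.

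The tissues carried their defining markers. All 13 tested squamous and basal epithelial genes lay above the array median on both wild-type proximal stomach arrays, all 7 urothelial genes on all bladder arrays, and all 12 enterocyte genes on all small intestine arrays. In knockout proximal stomach, 9 of the 13 squamous genes fell and none rose, with Krt5, a basal keratin, at a log2 difference of −5.80 (SE 0.19). The Trp63 probe set read 13.16 and 13.31 in wild-type and 13.67 and 13.78 in knockout proximal stomach, and whether it lies in the deleted part of the gene is not given in the sources used here, so it is no check of the genotype.

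The arrays also differed in sex-linked genes. The Y-linked gene Eif2s3y lay above the array median on 12 arrays, Xist, the RNA that silences an X chromosome, on another 12, and neither on the remaining 4, which were the second arrays of all 4 knockout gut groups. The labels do not say whether arrays of 1 number within a genotype come from the same embryo. In 10 of the 14 groups 1 array of the pair had Eif2s3y. At E19 both knockout bladder arrays had Eif2s3y and both wild-type bladder arrays had Xist, so genotype and sex cannot be told apart within that day. The E19 arrays also had lower medians (7.48 to 7.53) than the others (7.73 to 7.86).

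In wild-type embryos at E18 all 6 genes had a clear regional pattern, which splits them into 5 genes of the distal stomach and 1 gene of the intestine. Values are log2 expression values as deposited, where 1 unit is a doubling, and the 2 arrays of a group are given as a pair. Tff1 read 14.11 and 14.30 in distal stomach, against 6.74 to 9.05 on the 8 arrays of the other tissues. Tff2 read 12.55 and 12.79 in distal stomach and 6.60 to 8.67 elsewhere. Neither gene's distal stomach values came near those of any other tissue.

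The gastrokines showed the same pattern. Gkn1 read 14.22 and 14.61 in distal stomach and 4.35 to 6.58 elsewhere. Gkn2 read 13.55 and 14.06 there and 4.23 to 6.46 elsewhere. Gkn3, which in mice is a gene of mucous neck cells, read 11.26 and 12.33 there and 4.84 to 7.74 elsewhere. Between distal and proximal stomach the log2 differences were 9.96 (SE 0.72) for Gkn1, 9.01 (SE 0.72) for Gkn2, 6.45 (SE 0.52) for Gkn3, 6.47 (SE 0.54) for Tff1 and 5.49 (SE 0.26) for Tff2 (limma, adjusted p at most 3.2e-09).

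Tff3 was the exception among the 6 genes. It read 14.48 and 14.73 in large intestine and 14.14 and 14.22 in small intestine, where it is the peptide of goblet cells. It read 9.21 and 9.50 in distal stomach, 7.12 and 7.44 in bladder and 6.39 and 6.98 in proximal stomach. The 2 intestinal regions did not overlap, but small minus large intestine, −0.42 (SE 0.20), missed the threshold (limma, adjusted p = 0.0929). Distal stomach was higher than bladder by 2.07 (SE 0.20, adjusted p = 3.86e-08) and than proximal stomach by 2.67 (SE 0.20, adjusted p = 5.25e-10).

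All 6 genes passed the test in each of the 4 comparisons of wild-type distal stomach with another tissue. The share of all genes that passed was 40.4% against proximal stomach, 38.2% against small intestine, 24.5% against large intestine and 45.6% against bladder. The median difference between distal and proximal stomach was 6.46 over the 6 genes and 0.05 over all genes tested. Gkn1 and Gkn3 lay above the array median on 5 arrays each, all but 1 of them distal stomach arrays. These 2 genes passed the filter on low values only through the tissue where they are high. Their calls here, and their part in the median, are a description and no separate support. As in all bulk tissue, more cells of a type and more RNA per cell cannot be told apart.

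Below distal stomach, neighbouring tissues mostly did not differ beyond their spread. The order of means for Tff1 was small intestine (7.90), proximal stomach (7.73), bladder (7.37) and large intestine (7.31), and none of these 6 pairs passed. For Tff2, a gene of gland mucous cells, small intestine (7.88 and 8.67) was higher than proximal stomach (6.73 and 7.64) by 1.09 (limma, adjusted p = 0.00118), and it was also higher than large intestine and bladder. The difference from proximal stomach missed the threshold without the first wild-type proximal stomach array (adjusted p = 0.0563) and without the second wild-type small intestine array (adjusted p = 0.0501). For Gkn1 and Gkn2 no pair below distal stomach passed.

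Only 2 other pairs of neighbours or near neighbours passed. Gkn3 was higher in small than in large intestine by 1.45 (SE 0.52, adjusted p = 0.0294), which fell to 0.12 (adjusted p = 0.847) without the second small intestine array, and it also missed the threshold without either large intestine array (adjusted p = 0.113 and 0.0715). Tff3 gave −0.59 (SE 0.20, adjusted p = 0.019) for proximal stomach minus bladder, and this was lost without the first proximal stomach array (adjusted p = 0.305) or the first bladder array (adjusted p = 0.169). Of all members, 2 passed between proximal stomach and small intestine, where 53.6% of all genes did, 2 between small and large intestine (43.5%), 2 between small intestine and bladder (57%), 1 between proximal stomach and large intestine (42.3%), 1 between proximal stomach and bladder (46.6%) and 1 between large intestine and bladder (40.7%).

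**Figure D1:**
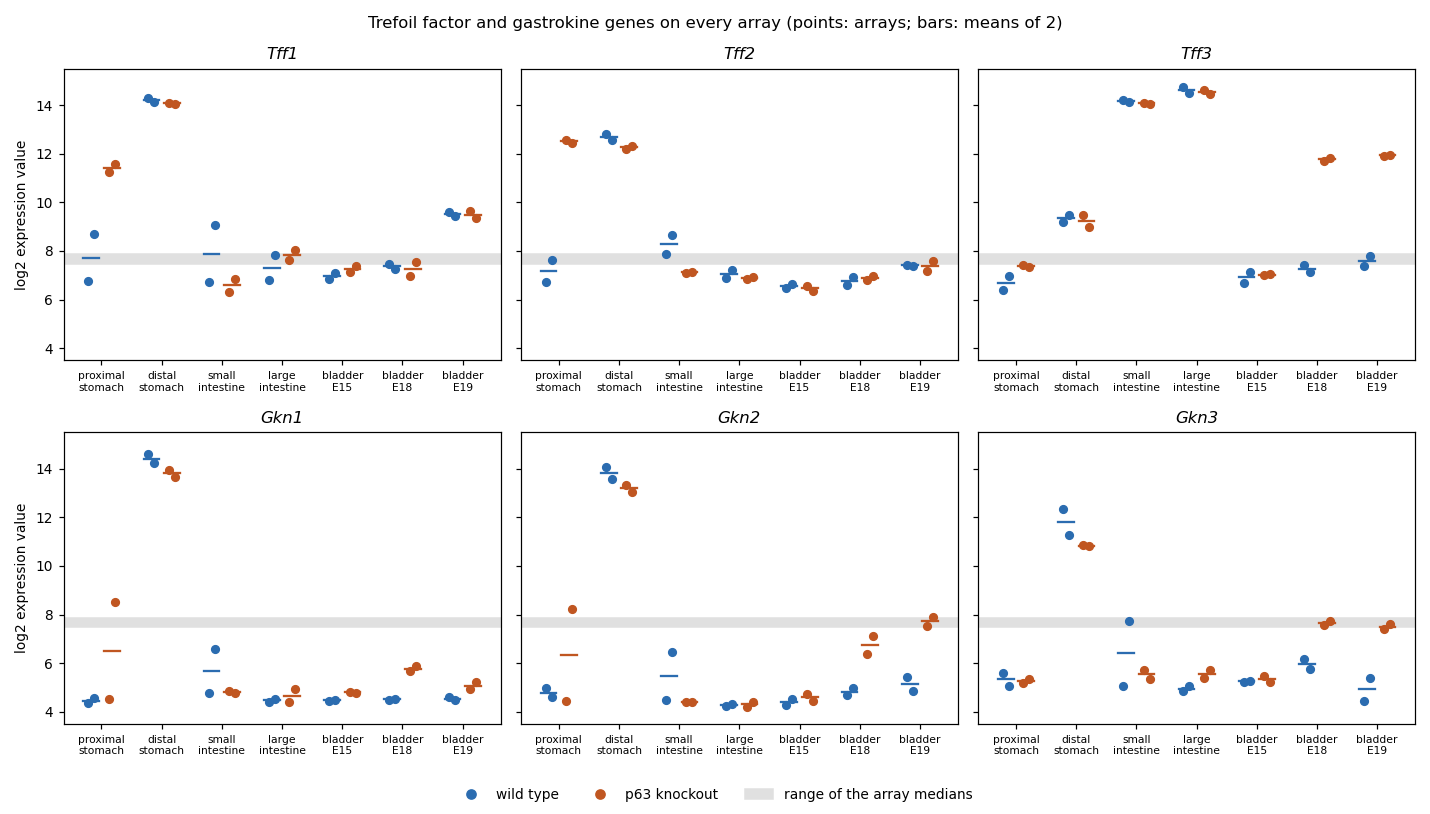
Log2 expression value of each gene (vertical axis) on every array, by tissue and embryonic day (horizontal axis), with wild type in blue and p63 knockout in orange, a bar at the mean of each pair and a grey band over the range of the 28 array medians. All panels but 1 peak in wild-type distal stomach, while that of Tff3 peaks in the intestine at 14.06 to 14.73. Knockout proximal stomach stands high for Tff1 and Tff2, and knockout bladder at E18 and E19 for Tff3.

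The 3 gastrokine genes are neighbours on mouse chromosome 6, and the sequence before each start is shown because the 3 genes shared one regional pattern. RefSeq promoter windows (GRCm38.p6) were matched for these 3 of the 6 genes. Each run holds the 250 bases before the start, 5′ to 3′ on the gene's strand, with matches to the GATA motif AGATAA and to the TATA box TATAAA in capitals. Gkn1 lies on the minus strand at chr6:87350916-87351165, Gkn2 on the plus strand at chr6:87373115-87373364 and Gkn3 on the minus strand at chr6:87388936-87389185.
Gkn1: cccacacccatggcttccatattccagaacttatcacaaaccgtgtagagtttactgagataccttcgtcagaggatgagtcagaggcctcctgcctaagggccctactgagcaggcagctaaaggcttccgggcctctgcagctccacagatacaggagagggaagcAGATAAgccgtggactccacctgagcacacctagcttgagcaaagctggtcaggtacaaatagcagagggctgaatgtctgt
Gkn2: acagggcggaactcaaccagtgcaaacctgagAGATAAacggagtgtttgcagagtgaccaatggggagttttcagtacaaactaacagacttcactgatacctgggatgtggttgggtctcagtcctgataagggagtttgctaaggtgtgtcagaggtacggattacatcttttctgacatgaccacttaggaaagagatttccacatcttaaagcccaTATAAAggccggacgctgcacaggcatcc
Gkn3: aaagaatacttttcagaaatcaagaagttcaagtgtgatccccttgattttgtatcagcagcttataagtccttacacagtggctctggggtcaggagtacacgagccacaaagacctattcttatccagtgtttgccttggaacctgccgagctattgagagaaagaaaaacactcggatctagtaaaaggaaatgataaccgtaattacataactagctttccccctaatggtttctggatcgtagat

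Both strands were searched for 5 motifs. AGATAA begins 82 bases before the start of Gkn1 and 218 bases before that of Gkn2, and 9.99% of 32851 promoter windows of this length hold it. TATAAA begins 29 bases before the start of Gkn2 and is held by 12.4% of windows. The loose spacing motif of the p53 family begins 234 bases before Gkn2 and 158 bases before Gkn3, and 63.5% of windows hold it. The forkhead letters TNTTTAC (10.9% of windows) and the CDX letters TTTATNG (9.81%) are in none of the 3 windows. These are letter matches only.

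Knockout and wild type differed in these genes in 2 organs, proximal stomach and bladder. Over the 7 comparisons of knockout with wild type, 8 of 42 tests of these genes passed, where 9.01% of the tests of all genes did. All 8 were higher in the knockout: Tff1, Tff2, Tff3 and Gkn1 in proximal stomach, Tff3 in bladder at E18, and Tff3, Gkn2 and Gkn3 in bladder at E19. No gene passed in distal stomach, small intestine, large intestine or bladder at E15.

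In proximal stomach the large changes were in the 2 gastric trefoil factors. Tff2 read 6.73 and 7.64 in wild type and 12.43 and 12.58 in knockout. Tff1 read 6.77 and 8.70 in wild type and 11.26 and 11.58 in knockout. For both genes the knockout arrays were far above the wild-type arrays, and the wild-type pair was itself wide. Tff2 rose by 5.32 (SE 0.26, adjusted p = 7.77e-13), a 39.9-fold difference, and Tff1 by 3.69 (SE 0.54, adjusted p = 1.68e-05), a 12.9-fold difference.

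Leaving out 1 array at a time and the other alternatives kept both calls, at 4.87 to 5.85 for Tff2 and 2.72 to 4.65 for Tff1. Tff3 read 6.39 and 6.98 in wild type and 7.34 and 7.42 in knockout, groups that did not overlap but lay below the array median. Groups did not overlap for 3 of the 6 genes in proximal stomach, and for 63.8% of all genes tested. Tff3 rose by 0.69 (SE 0.20, adjusted p = 0.0106). This call was lost without the first wild-type array (0.40, adjusted p = 0.213), without the first knockout array (adjusted p = 0.0606), with only these 4 arrays in the fit (adjusted p = 0.105) and with an RNA quality covariate (0.46, adjusted p = 0.382).

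The gastrokines in proximal stomach turned on 1 array. Gkn1 read 4.35 and 4.56 in wild type and 4.51 and 8.53 in knockout. Gkn2 read 4.59 and 4.996 in wild type and 4.44 and 8.22 in knockout. Gkn3 read 5.08 and 5.61 in wild type and 5.17 and 5.36 in knockout. The knockout and wild-type groups overlapped for all 3 genes, because the first knockout array stood at the wild-type level for each and the second was high for Gkn1 and Gkn2 alone.

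The fit gave Gkn1 a difference of 2.06 (SE 0.72, adjusted p = 0.0326), which was 0.06 (adjusted p = 0.946) without the second knockout array and missed the threshold without either wild-type array (adjusted p = 0.132 and 0.0792). Gkn2 gave 1.54 (SE 0.72, adjusted p = 0.11), and 3.42 (adjusted p = 3.31e-05) without the first knockout array. Gkn3 gave −0.08 (SE 0.52, adjusted p = 0.931), with a 95% interval of −1.16 to 1.01.

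So 4 of the 6 genes passed in proximal stomach, where 32.7% of all genes tested did. The median difference was 1.80 over the 6 genes and 0.02 over all genes. The 3' to 5' signal difference of the actin control probes, a measure of RNA integrity, was 0.97 and 0.88 in wild-type and 0.48 and 0.61 in knockout proximal stomach. With it as a covariate Tff1 and Tff2 remained called and no other of the 6 genes did, Gkn1 giving 2.61 (SE 1.14, adjusted p = 0.144).

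**Figure D2:**
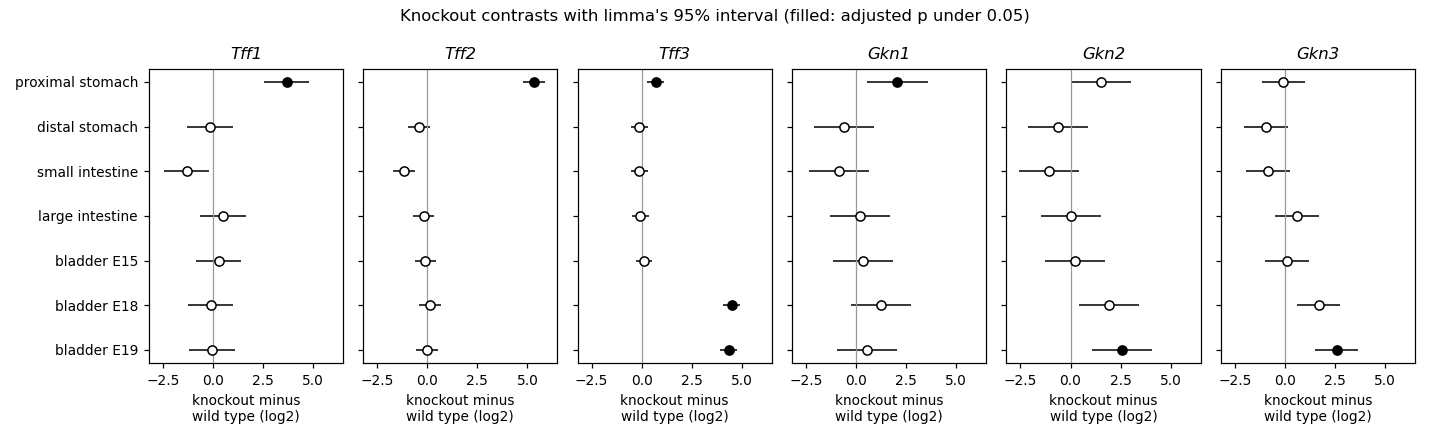
Log2 difference of knockout from wild type (horizontal axis) for each gene in the 7 tissue and day pairs (vertical axis), with limma's 95% interval and filled points where the adjusted p is under 0.05. The filled points lie in proximal stomach and in bladder at E18 and E19, from 0.69 to 5.32, and all points of distal stomach and small intestine are open and below 0.

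Set beside wild-type distal stomach, where Tff1 and Tff2 are normally high, knockout proximal stomach reached the level of 1 of the 6 genes. Tff2 read 12.43 and 12.58 in knockout proximal stomach and 12.55 and 12.79 in wild-type distal stomach, which overlap. The difference was −0.17 (SE 0.26, adjusted p = 0.671), with a 95% interval of −0.70 to 0.37. Tff1 stayed lower, at a difference of −2.79 (SE 0.54, adjusted p = 0.000413) and Tff3 at −1.97 (SE 0.20, adjusted p = 1.07e-07). Gkn1, Gkn2 and Gkn3 stayed lower, at −7.89, −7.48 and −6.53 (adjusted p at most 5.07e-08). These 5 calls stand against a background of 32.9% of genes.

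Gastric surface mucous genes also rose in knockout proximal stomach. Of 16 tested surface mucous (foveolar) cell genes 11 rose and none fell, with a median difference of 1.74. Among them were Gcnt3 (5.08, SE 0.63), an enzyme that branches mucin sugars, the membrane mucin gene Muc1 (4.07, SE 0.34) and the aspartic protease gene Ctse (2.69, SE 0.52). Of 11 tested genes of gland mucous, chief and parietal cells 3 rose and 1 fell, with a median of 0.35. Those that rose were Bhlha15 (3.01, SE 0.36), a regulator of secretory cells, the gastrin receptor gene Cckbr (1.67, SE 0.23) and the pepsinogen gene Pgc (0.74, SE 0.26), and the water channel gene Aqp5 fell by 3.24.

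Of 4 listed mucin and mucus protein partners of the trefoil factors only 3 were tested, and 2 rose. Muc5ac, which encodes the mucin released with Tff1, read 5.996 and 6.25 in wild-type and 7.64 and 7.78 in knockout proximal stomach, and 9.57 and 9.75 in wild-type distal stomach. It rose by 1.58 (SE 0.19, adjusted p = 9.49e-07). Fcgbp, which encodes a mucus protein that binds Tff3, rose by 1.35 (SE 0.29, adjusted p = 0.000962), and the goblet mucin gene Muc2 differed by −0.11 (adjusted p = 0.878). Of 4 tested receptor and binding protein genes, Cxcr4 (2.26) and Ackr3 (0.86), chemokine receptors proposed to respond to trefoil factors, rose and Egfr fell by 0.52.

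Genes listed for other epithelia moved in the same arrays. Of 7 urothelial genes 6 rose, with a median of 4.40, among them Krt20 (5.92), Upk1a (5.42) and Upk2 (5.31). Of 16 goblet cell genes 7 rose and 1 fell, with Spink4 (7.55) and Agr2 (7.01) highest. The median level of the urothelial list went from 6.95 and 7.01 to 11.30 and 11.92, and that of the goblet list from 7.03 and 7.28 to 8.81 and 8.69. These lists are not specific to their cell types here. In wild type, 4 of the 7 urothelial and 11 of the 16 goblet genes were higher in distal than in proximal stomach, and 1 of each was lower. Krt20 (6.08), Agr2 (7.99) and Spink4 (3.76) were among those higher. Of all 13613 genes, 3030 were higher in that comparison and 2474 lower. The part of these cell types in the trefoil changes was not tested. Of 20 transcription factor genes of mucosal epithelia 8 rose and 1 fell, with Foxa2 (4.77), Hnf4a (3.27) and Foxa3 (3.04) rising most.

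In distal stomach, where 5 of the genes are highest in wild type, none of the 6 passed between knockout and wild type, and all 6 differences were negative. Gkn3 read 11.26 and 12.33 in wild type and 10.83 and 10.84 in knockout, without overlap, a difference of −0.96 (SE 0.52). Gkn1 read 14.22 and 14.61 against 13.64 and 13.96, a difference of −0.61 (SE 0.72). Gkn2 read 13.55 and 14.06 against 13.04 and 13.33, a difference of −0.62 (SE 0.72). Tff1 (−0.14), Tff2 (−0.41) and Tff3 (−0.12) differed by less. Within the knockout, Tff2 read 12.19 and 12.33 in distal stomach, below its 12.43 and 12.58 in proximal stomach, a difference that was not tested.

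The groups overlapped for Tff3 and not for the other 5 genes, and 27.7% of all genes tested had groups that did not overlap in distal stomach. Adjusted p-values were 0.996 to 0.997, and the percentage of all genes that passed was 0 by limma, with 528 genes and none of the 6 under an unadjusted p of 0.05. The 95% intervals allow a fall of up to 2.12 for Gkn1 and Gkn2. The knockout difference was larger in proximal than in distal stomach by 5.73 (SE 0.36, adjusted p = 1.79e-10) for Tff2, by 3.83 (SE 0.77, adjusted p = 0.000955) for Tff1 and by 0.82 (SE 0.28, adjusted p = 0.0476) for Tff3, against 19.2% of all genes. The Tff3 call was kept under 7 of 21 alternatives, and the Tff1 call was lost with the actin covariate (3.07, SE 1.07, adjusted p = 0.0861).

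In small intestine all 6 genes also had negative differences, and none passed. Tff2 read 7.88 and 8.67 in wild type and 7.09 and 7.14 in knockout, a difference of −1.16 (SE 0.26, unadjusted p = 0.000205, adjusted p = 0.935). Tff1 read 6.74 and 9.05 in wild type and 6.33 and 6.85 in knockout (−1.31, SE 0.54). The goblet peptide gene Tff3 read 14.14 and 14.22 in wild type and 14.06 and 14.07 in knockout, a difference of −0.11 (SE 0.20) with a 95% interval of −0.53 to 0.30. The groups did not overlap for Tff2, Tff3 and Gkn2, nor for 41.4% of all genes tested. By limma 0 genes of all tested passed in this tissue, a percentage of 0, and 626 had an unadjusted p under 0.05, 2 of them members (Tff1 and Tff2).

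In large intestine Tff3 read 14.48 and 14.73 in wild type and 14.47 and 14.60 in knockout, which overlap (−0.07, SE 0.20, 95% interval −0.48 to 0.35). The other 5 genes differed by −0.19 to 0.60 and none passed, where 0.0882% of all genes did, and none had an unadjusted p under 0.05. The test of the knockout difference between small and large intestine passed for none of the 6 genes and for 0.022% of all genes. Gkn3 (4.84 and 5.07 against 5.38 and 5.73) was the one of the 6 genes whose groups did not overlap, where 27% of all genes tested had such groups.

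In bladder Tff3 rose in the knockout at E18 and E19. At E15 it read 6.68 and 7.14 in wild type and 7.004 and 7.04 in knockout, which overlap, and none of the 6 genes passed, where 7.04% of all genes did. At E18 Tff3 read 7.12 and 7.44 in wild type and 11.70 and 11.83 in knockout. At E19 it read 7.37 and 7.801 in wild type and 11.92 and 11.94 in knockout. The knockout pairs lay more than 4 log2 units above the wild-type pairs on both later days.

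Tff3 rose by 4.49 (SE 0.20, adjusted p = 6.35e-12) at E18, a 22.4-fold difference, and by 4.35 (SE 0.20, adjusted p = 7.81e-12) at E19, a 20.3-fold difference. The E18 difference was larger than that at E15 by 4.38 (SE 0.28, adjusted p = 1.53e-08), where 0.61% of genes passed, and the E19 and E18 differences were −0.14 apart (SE 0.28, adjusted p = 0.851), in a test that none of the 6 genes and 5.27% of all genes passed. All alternatives kept both calls, between 4.13 and 4.64. At E18 both knockout arrays and the second wild-type array had Xist, and over these 3 arrays the difference was 4.64. In knockout bladder Tff3 remained below the wild-type large intestine level, at a difference of −2.84 (SE 0.20, adjusted p = 4.12e-10), in a comparison where 43.2% of genes passed. Gkn2 and Gkn3 were higher in that bladder than in large intestine, by 2.46 (adjusted p = 0.00863) and 2.69 (adjusted p = 0.000299). The mean of both probe sets gave 1.76 for Gkn3 (adjusted p = 0.00145), and Gkn2 missed the threshold without the second knockout bladder array (adjusted p = 0.0828).

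Of the gastrokines, Gkn2 and Gkn3 rose in knockout bladder at E19. Gkn2 read 4.68 and 4.96 in wild type and 6.36 and 7.12 in knockout at E18, and 4.85 and 5.42 against 7.55 and 7.90 at E19. Gkn3 read 5.75 and 6.17 against 7.56 and 7.72 at E18, and 4.46 and 5.40 against 7.39 and 7.61 at E19. The knockout arrays lay above the wild-type arrays for both genes on both days, and lay below the array median at E18. Groups did not overlap for 4 of the 6 genes on each day, and for 49.3% of all genes tested at E18 and 64.6% at E19. At E19 Gkn2 rose by 2.59 (SE 0.72, adjusted p = 0.0148), a 6.02-fold difference, and Gkn3 by 2.57 (SE 0.52, adjusted p = 0.00168), a 5.95-fold difference.

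At E18 the differences of 1.92 (SE 0.72, adjusted p = 0.179) for Gkn2 and 1.68 (SE 0.52, adjusted p = 0.0922) for Gkn3 missed the threshold. Gkn1 read 4.48 and 4.54 against 5.66 and 5.87 at E18, which do not overlap, nor did the groups of 49.3% of all genes. Its difference was 1.26 (SE 0.72, adjusted p = 0.443) at E18 and 0.54 (SE 0.72, adjusted p = 0.658) at E19. With only the 4 arrays of bladder E18 in the fit all 3 gastrokines passed (adjusted p = 0.035, 0.0296 and 0.0189). The share of all genes that passed in that smaller fit is not given here, so these calls cannot be read as a result about the gastrokines. The spread of the whole fit includes the wide stomach and small intestine pairs. Leaving out the 3 arrays that stand apart there, chosen after the data were seen, kept the differences at 1.26, 1.92 and 1.68. It made the SEs smaller without changing the bladder values, so it is no separate support for a rise.

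The Gkn2 call at E19 was lost without either knockout array (adjusted p = 0.0566 and 0.0994) and without the second wild-type array (adjusted p = 0.0966). The Gkn3 call held under all 17 alternatives, at 1.78 to 3.04. With a covariate for Y-linked RNA the E19 differences were 4.34 for Tff3, 3.12 for Gkn2 and 2.68 for Gkn3, and all 3 remained called. Both E19 knockout arrays had Eif2s3y and both wild-type arrays had Xist, so the covariate is estimated from other groups. It cannot separate sex from genotype on that day. The second probe set of Gkn3 read 6.98 and 7.10 against 7.82 and 8.25 at E19, a smaller gap than that of the first. The second probe set of Gkn1 read 5.66 and 6.29 against 6.62 and 6.84.

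In bladder, then, 1 of 6 genes passed at E18, where 3.24% of all genes did, and 3 of 6 at E19, where 20% did. Tff1 and Tff2 gave differences of −0.10 and 0.13 at E18 and −0.04 and −0.02 at E19. The 95% intervals at E18 were −1.24 to 1.03 for Tff1 and −0.41 to 0.66 for Tff2. The proximal stomach difference exceeded the bladder E18 difference by 5.19 (SE 0.36, adjusted p = 8.55e-10) for Tff2 and by 3.79 (SE 0.77, adjusted p = 0.00101) for Tff1, and for Tff3 the same difference was −3.79 (SE 0.28, adjusted p = 2.29e-09). These 3 of 6 genes stand against 22.8% of all genes.

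**Figure D3:**
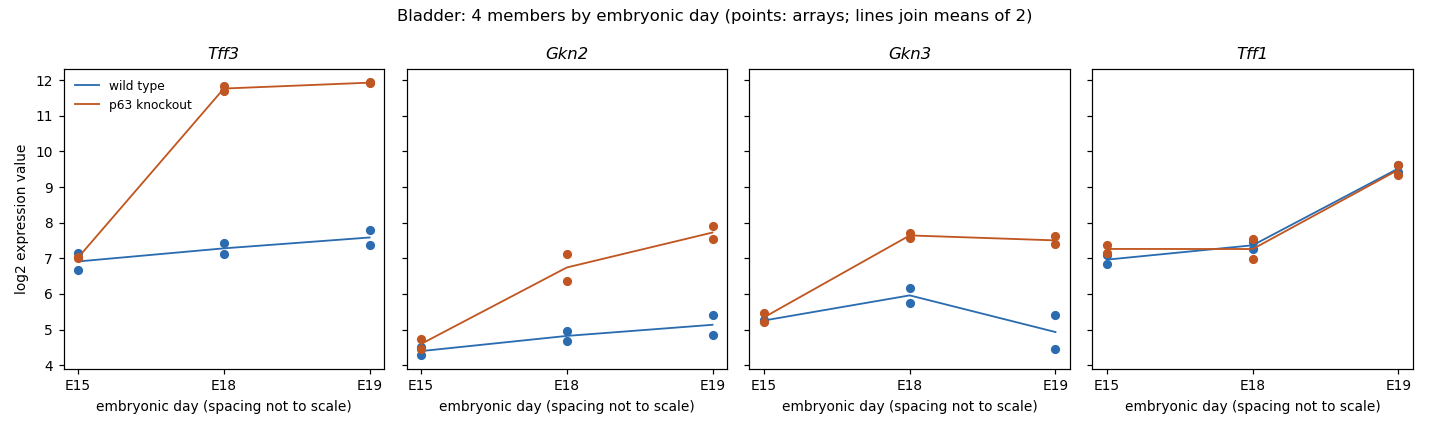
Log2 expression value (vertical axis) of Tff3, Gkn2, Gkn3 and Tff1 in bladder at E15, E18 and E19 (horizontal axis, not to scale), with points for arrays and lines joining the means of 2, wild type in blue and p63 knockout in orange. Tff3 parts between genotypes from E18 on, at 11.70 to 11.94 against 7.12 to 7.801. Tff1 has the same course in both genotypes and is higher at E19, at 9.34 to 9.63.

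Genes known from goblet cells rose in the same knockout bladders. Of 16 tested goblet cell genes 7 rose at E18 (median difference 1.25, against 0.02 over all genes) and 12 at E19 (median 1.52, against 0.09), and none fell. At E18 the guanylin gene Guca2a rose by 4.73 (SE 0.23), Reg4 by 3.51 (SE 0.52), Fcgbp by 2.57 (SE 0.29) and Spink4 by 2.55 (SE 0.36). The mucin gene Muc2 differed by 0.60 (adjusted p = 0.574) at E18 and rose by 1.47 (adjusted p = 0.0201) at E19, where it read 6.53 and 6.62 in wild type and 8.02 and 8.06 in knockout. The goblet cell regulator gene Spdef rose by 2.08 at E18 and by 1.34 at E19.

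Genes of gastric cells gave few calls in bladder. Of 16 surface mucous genes none rose and Adam28 fell at both days (−1.35 and −1.33), and of 11 gland genes none passed at either day. Some intestinal markers were higher. At E18, 2 of 12 enterocyte genes (Fabp1 and Vil1) and 2 of 3 genes listed for hindgut and colon (Mptx1 and Lypd8) rose. At E19, 3 enterocyte genes (Fabp1, Vil1 and Cdh17) and 1 gene of the hindgut list (Mptx1) rose. Of all 13613 genes, 441 passed at E18 and 2721 at E19, so the E19 enterocyte count is near the share of all genes. Mptx1 and Lypd8 also read high in wild-type small intestine, at means of 14.08 and 14.28, so they do not mark large intestine alone. The median level of the 12 enterocyte genes was 5.91 and 6.18 in wild-type and 7.07 and 7.03 in knockout bladder at E18, against 8.87 and 9.55 in wild-type large intestine. That of the 3 genes listed for hindgut and colon was 6.02 and 6.08 against 8.52 and 8.14, and 14.62 and 13.41 in wild-type large intestine. All 7 urothelial genes lay above the array median in both genotypes. Whether intestinal tissue in the samples had a part in the Tff3 difference was not tested.

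Markers of other cells also moved in knockout bladder. Of 13 squamous and basal genes 5 fell at E18 and 6 at E19, and Krt5 fell by 4.83 and 5.01. Of 7 blood and immune cell genes none passed at E18 and 3 rose at E19, the leukocyte genes Ptprc (1.44, SE 0.36) and Cd52 (0.99, SE 0.31) and the red cell gene Alas2 (1.14, SE 0.37). The median level of that list at E19 was 10.06 and 9.87 in wild type and 11.10 and 11.11 in knockout. Of 8 liver genes Ttr rose at E19 (1.65, SE 0.34). Of 8 pancreas and 8 smooth muscle genes none passed on either day. Their part in the gastrokine differences was not tested.

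Across embryonic days the calls differed between genes. In wild-type bladder none of the 6 passed between E15 and E18 (45% of all genes did), also with none under an unadjusted p of 0.05. In knockout bladder Tff3 rose by 4.74 (SE 0.20, adjusted p = 2.12e-12), Gkn3 by 2.30 (SE 0.52, adjusted p = 0.00132) and Gkn2 by 2.15 (SE 0.72, adjusted p = 0.0191) over the same days. These 3 of 6 calls are near the 46.7% of all genes that passed, so their count is not a result about these genes. In the direct test of whether the knockout difference changed between E15 and E18, only Tff3 of the 6 genes passed. A course that differs between genotypes is therefore not shown for Gkn2 or Gkn3. The Gkn2 call was lost without either E15 array (adjusted p = 0.0582 and 0.085) and without the second E18 array (adjusted p = 0.132). The actin 3' to 5' difference was 1.33 and 1.12 in knockout bladder at E15 and 0.51 on both arrays at E18. With it as a covariate Tff3 remained called. Gkn2 then gave 3.45 (SE 1.78, adjusted p = 0.32) and Gkn3 1.98 (SE 1.31, adjusted p = 0.467), with larger SEs than without it.

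Tff1 rose in bladder between E18 and E19 in both genotypes. It read 7.27 and 7.46 in wild-type bladder at E18 and 9.43 and 9.61 at E19, and 6.98 and 7.55 against 9.34 and 9.63 in knockout. The rises were 2.16 (SE 0.54, adjusted p = 0.00171) and 2.22 (SE 0.54, adjusted p = 0.00142), and no E18 array overlapped an E19 array. Tff2 rose by 0.64 (SE 0.26, adjusted p = 0.0353) in wild type, a call lost without the first E18 array (adjusted p = 0.216) or either E19 array (adjusted p = 0.115 and 0.0828), and it gave 0.49 (adjusted p = 0.106) in knockout. Thus 2 of 6 genes passed in wild type, where 63.1% of all genes did, and 1 of 6 in knockout, where 60.5% did.

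The day differs here together with the array medians. Centring each array on its median moved the median gene between E18 and E19 from −0.08 to 0.15 in wild type and from −0.01 to 0.30 in knockout. It moved the share of called genes that were higher at E19 from 42.9% to 57.3% and from 46.8% to 67.1%. After the same centring Tff1 rose by 2.39 in wild type and 2.54 in knockout, Tff2 by 0.87 and 0.80, and Tff3 by 0.54 and 0.48.

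Some pairs of arrays differed from each other in these genes more than in nearly any other gene. In knockout proximal stomach the second array exceeded the first by 4.01 for Gkn1 and 3.78 for Gkn2, and 5 and 6 of the 13613 genes differed more in size. Those ahead of Gkn1 were Eif2s3y (−7.79), Kdm5d (−4.86), Fam122b (4.74), Uty (−4.40) and the casein gene Csn1s2a (4.09), of which Eif2s3y, Kdm5d and Uty are Y-linked. On that array pair the 16 surface mucous genes had a median difference of 0.21 and the 11 gland genes of −0.11, with no gene of either list above 1. Gkn3 differed by 0.19.

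The wild-type small intestine pair differed in 5 of the 6 genes. Its second array exceeded the first by 2.67 for Gkn3, 2.32 for Tff1, 1.96 for Gkn2, 1.79 for Gkn1 and 0.79 for Tff2, but by −0.08 for Tff3. The second array also had higher values for 5 of 8 pancreas genes, with a list median difference of 2.68, led by Ctrb1 (4.33) and Cel (3.79), and for the antral factor gene Nkx6-3 (8.92 against 5.34). The pancreas list median was 9.07 on that array and 9.19 on the first knockout small intestine array. On the latter Gkn1 read 4.88, Gkn2 4.39, Gkn3 5.72, Tff1 6.33 and Tff2 7.09. The wild-type proximal stomach pair differed by 1.93 for Tff1 and 0.91 for Tff2. There 4 of 16 surface mucous genes differed by more than 1. The part of pancreas or other neighbouring tissue, and that of the sex-linked differences, in these pairs was not tested.

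**Figure D4:**
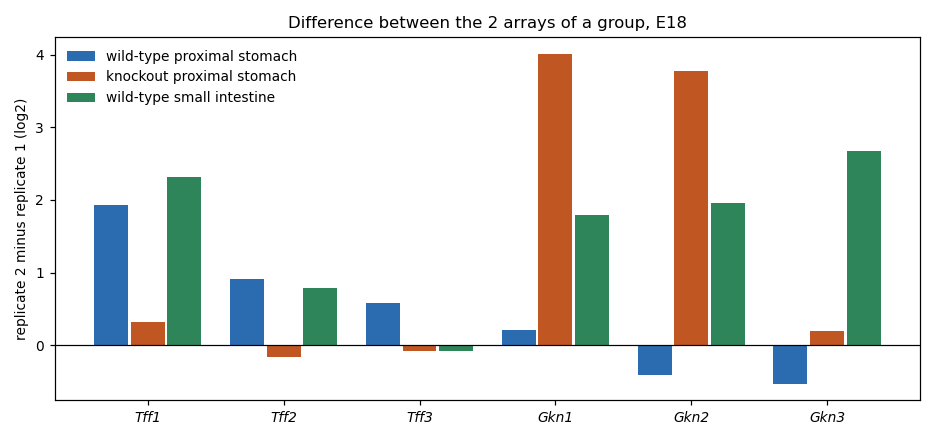
Difference between the second and the first array (vertical axis, log2) for the 6 genes (horizontal axis) in wild-type proximal stomach (blue), knockout proximal stomach (orange) and wild-type small intestine (green) at E18. The bars reach 4.01 for Gkn1 in knockout proximal stomach and 2.67 for Gkn3 in wild-type small intestine, while Tff3 stays within 0.59 of 0.

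Over the 14 group means the genes fell into the same sets as their regional pattern, given here as a description over groups that share arrays, scaling and tissue. Pearson's r was 0.968 between Gkn1 and Gkn2, 0.969 between Gkn2 and Gkn3, 0.933 between Gkn1 and Gkn3, 0.925 between Tff1 and Tff2, and −0.23 to 0.01 between Tff3 and the other 5. The genes most like Tff1 were 1810046K07Rik (0.983) and the mucin gene Muc5ac (0.981). Those most like Tff2 were Bhlha15 (0.947) and Gk5 (0.939). Gkn1 was most like Pgc (0.993), Anxa10 (0.982) and the gastric tight junction gene Cldn18 (0.981), and Gkn2 most like Bpifb5 (0.973). Gkn3 was most like Gkn2. The profile of Tff3 was closest to Guca2a (0.960), Reg4 (0.948), Mptx1 (0.942) and Atoh1 (0.939), the last encoding a secretory lineage factor.

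The tested genes beside the 2 clusters had their own patterns. Abcg1, next to the trefoil genes on chromosome 17, differed by −0.16 (adjusted p = 0.627) in knockout proximal stomach and rose by 1.06 (adjusted p = 0.0078) in knockout bladder at E18. Arhgap25 and Antxr1, the tested neighbours of the gastrokine genes, fell by 2.28 and 0.41 in knockout proximal stomach. Wild-type distal minus proximal stomach gave −2.53 and −0.72 for them.

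The 2 probe sets of Gkn1 correlated at 0.978 over the 28 arrays, with a largest gap of 1.89 on one array, and those of Gkn3 at 0.867, with a largest gap of 2.52. For both genes each probe set was highest in wild-type distal stomach.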

How the data were processed

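Total RNA of 28 mouse samples was labelled with a 3' IVT kit and hybridised to Affymetrix mouse arrays, per the labels' protocols. Affymetrix Expression Console and Partek are named in the submitters' processing notes; the sources used here give no normalization. The authors deposited log2 expression values, 1 per probe set and array, which were used without further scaling. Of the probe sets that are no controls, 34945 have 1 gene symbol in GEO's platform annotation, 932 several and 9160 none. Probe sets above their array's median on at least 2 of 28 arrays (28866) were kept, and each gene was read from its probe set with the highest mean, which left 13613 genes.

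The model was limma's (3.58.1, R 4.3.3), 1 mean for each of the 14 groups, and eBayes with trend over all arrays (14 residual and 6.19 prior degrees of freedom). P-values were adjusted by Benjamini-Hochberg over all genes of each of 28 contrasts, and "passed", "rose" and "fell" mean an adjusted p under 0.05. The fit was tested on simulated data for the proximal stomach contrast with 13613 genes: of 50 genes changed by each size, 30% were recovered at 0.5 log2 units, 70% at 1, 98% at 2 and 100% at 3, and 10 of 13413 unchanged genes were called.

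The genes, cell type lists and tests were chosen with earlier results of these data known. The 6 genes are named in every comparison, the mucin partners always, and of each other list up to 4 called genes of largest change, with the genes most like each member and the cluster neighbours; Adam28, Spdef, Nkx6-3 and the genes of single array pairs were named after their values were seen. Neighbouring genes and promoter sequences are from RefSeq (GRCm38.p6). Alternatives were array centring, quantile normalization, other filters, the mean of probe sets, a replicate block, an actin covariate, array weights, fewer arrays and, chosen after seeing the data, crossed numbers, a block across tissues, a Y-linked covariate and leaving out 3 arrays.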

Additional observations from a re-analysis of the deposited data

Results flagged for a closer look

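The difference between knockout and wild type itself differed between organs or days for 7 tests of these genes (limma, test of the difference of differences). Of all 13613 genes, 2618 passed between proximal and distal stomach and 83 between bladder E18 and E15. Between proximal stomach and bladder E18 3108 passed. None of the 6 genes passed between bladder E19 and E18, where 718 of all genes did, or between the intestines, where 3 did. Between proximal and distal stomach the knockout difference differed by 5.73 (SE 0.36) for Tff2, by 3.83 (SE 0.77) for Tff1 and by 0.82 (SE 0.28) for Tff3. In distal stomach none of the 3 genes passed, and the Tff3 difference passed narrowly (adjusted p = 0.0476).

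Between bladder at E18 and at E15 it differed by 4.38 (SE 0.28) for Tff3, which read alike in both genotypes at E15. Between proximal stomach and bladder at E18 it differed by 5.19 (SE 0.36) for Tff2, by 3.79 (SE 0.77) for Tff1 and by −3.79 (SE 0.28) for Tff3. The knockout difference of the gastric pair was the larger in proximal stomach, and that of the intestinal gene the larger in bladder.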

How the results depend on the processing

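Over the 6 genes, 28 contrasts and all alternatives, 2871 differences kept their direction and side of the threshold, 54 lost the threshold and 51 gained it. No member's called difference changed sign. Among the other genes named, Synpo2 between distal and proximal stomach turned from lower (−0.66) to 0.040 with the mean of all probe sets.

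Counts of the 6 genes called changed as follows, and the cause was not tested. The share of all genes called under each alternative is not given beside these counts. A changed count therefore cannot be read as a result about the 6 genes. Fitted on the compared groups alone, the count was 4 in bladder E18 (main 1), 2 in proximal stomach (main 4), 1 in wild-type bladder from E15 to E18 (main 0), 3 in knockout bladder from E18 to E19 (main 1), 0 between proximal stomach and bladder (main 1), 2 between large intestine and bladder (main 1) and 2 for the difference between bladder E18 and E15 (main 1). With the actin covariate it was 2 in proximal stomach, 1 in knockout bladder from E15 to E18 (main 3), 1 between proximal stomach and small intestine (main 2), 0 between proximal stomach and bladder, 1 between small and large intestine (main 2) and 1 for the difference between stomach regions (main 3). Without the 3 arrays that stand apart it was 4 in bladder E18, 4 in knockout bladder from E18 to E19, 1 between small and large intestine, 2 between large intestine and bladder and 5 for the difference between proximal stomach and bladder E18 (main 3). In knockout bladder from E18 to E19 it was 3 with centring, 2 with quantile normalization and 2 with the Y-linked covariate, which also left 1 in wild type (main 2).

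Leaving out 1 array at a time gave 2 to 4 in proximal stomach, 1 to 2 in wild-type bladder from E18 to E19, 1 to 5 between proximal stomach and small intestine, 0 to 1 between proximal stomach and bladder, 1 to 3 between small and large intestine and 2 to 5 between small intestine and bladder (main 2). Deviations of same-numbered knockout and wild-type arrays correlated at −0.127 to 0.275, with 3 of 7 tissue and day pairs over 0.1 (proximal stomach, distal stomach and large intestine), and the numbers were not taken as pairs since not every pair was. With the replicate number as a block the count stayed within 1.5 times in 28 of 28 contrasts, as it did with the block across tissues; in proximal stomach the blocked Tff2 difference was 5.32 and the count 4. The crossed pairing in small intestine gave 2 in bladder E18. The other filters, the mean of probe sets and array weights moved no count by over 1.5 times. Values near the bottom of an array's range, as for the gastrokines outside distal stomach, have no stated background to be read against.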
